A study of Mus musculus with 6 samples.

Results

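The BCL2 family decides whether the outer membrane of the mitochondrion is opened during apoptosis. The 10 genes described here were taken from a named list of symbols and matched to the deposited table by mouse Ensembl identifier, and all 10 of 10 were found among its 47729 genes. They were Bcl2, Bcl2l1 and Mcl1 as survival members, Bax and Bak1 as effectors, and Bid, Bad, Bcl2l11, Bbc3 and Pmaip1 as BH3-only members, so that 3 survival members were set against 7 death members. RNA of mouse bone marrow was measured by poly(A) RNA-seq in 6 libraries, 3 labelled cluster KO, from mice in which the SNORD113-114 cluster is knocked out, and 3 labelled wildtype. The RNAs of that cluster are small nucleolar RNAs of the C/D class, which guide chemical modification of other RNAs. The labels give no strain, age, treatment or allele structure and do not say whether marrow cells were sorted. The submitters describe a comparison of 3 mice per genotype, yet the labels name no single animal for a library. The p-values therefore measure only the spread between libraries, and how much of it lies between animals cannot be read from the labels.

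The survival proteins BCL2, BCL-XL (from Bcl2l1) and MCL1 hold the effectors BAX and BAK in check. Once active, BAX and BAK form pores in the outer membrane, cytochrome c escapes and caspases are switched on. BH3-only proteins sense damage or missing growth factor and act by placing a short helix, the BH3 segment, into the groove of a survival protein or an effector. In bone marrow, MCL1 is required by stem cells and by many lineages, BCL2 protects lymphocytes, BCL-XL protects erythroid cells and platelets, and BIM (from Bcl2l11) removes lymphocytes. Most of these proteins are controlled by cleavage, phosphorylation or turnover, which RNA counts do not measure.

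The part of the coding sequence that members of the family share is the BH3 core. A search of the longest principal coding transcript of each member for leucine, 3 residues of any kind, glycine and aspartate found it in 8 of 10 members. Bbc3 has alanine and Bad has serine in place of the glycine, and the same spacing was found in both. The stretches are shown because they are what the 3 classes have in common, and the capitals mark the codons of the leucine, of the glycine or its replacement, and of the aspartate. Each runs 5′ to 3′ along the coding strand on mm10, with 4 codons on either side, and the Pmaip1 stretch is not shown.
Bcl2 (chr1:106712572-106712613, minus strand): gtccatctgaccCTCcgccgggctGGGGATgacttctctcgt
Bcl2l1 (chr2:152829694-152829735, minus strand): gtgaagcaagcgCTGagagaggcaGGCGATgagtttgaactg
Mcl1 (chr3:95659424-95659465, plus strand): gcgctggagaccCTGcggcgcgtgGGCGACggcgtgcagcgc
Bax (chr7:45465994-45466035, minus strand): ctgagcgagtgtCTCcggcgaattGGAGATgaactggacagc
Bak1 (chr17:27022528-27022569, minus strand): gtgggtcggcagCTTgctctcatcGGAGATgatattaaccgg
Bid (chr6:120897286-120897327, minus strand): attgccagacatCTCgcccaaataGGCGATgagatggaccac
Bcl2l11 (chr2:128147138-128147179, plus strand): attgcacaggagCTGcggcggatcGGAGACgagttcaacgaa
Bbc3 (chr7:16313761-16313802, plus strand): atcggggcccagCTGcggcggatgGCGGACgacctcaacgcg
Bad (chr19:6950780-6950821, plus strand): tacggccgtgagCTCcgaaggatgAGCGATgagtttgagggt

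The leucine was codon 90 of 195 in Bid, 90 of 233 in Bcl2l1 and 94 of 236 in Bcl2. In Bid it lies after the loop that caspase 8 cuts to make the active fragment.

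Between 17663369 and 23459168 reads per library were counted on genes. Replicates differed beyond counting noise, at a chi-square of 12.18 to 71.38 for each degree of freedom. Rian, the host transcript of the deleted region (chromosome 12, 109603940 to 109661716, mm10), drew only 9, 6 and 3 reads (cluster KO) against 11, 5 and 38 (wildtype), which is too little to check the labels. Levels are CPM, each count scaled to the size of its library after TMM normalization, and 3 counts, the most that a count of 0 allows at 95% confidence, were worth 0.126 to 0.17 CPM. A gene is called where edgeR's quasi-likelihood test gave a Benjamini-Hochberg adjusted p under 0.05 over all 15686 tested genes. By that rule 4382 genes were called (27.9%), of which 2487 were higher (15.9%) and 1895 lower (12.1%) in cluster KO, and the libraries of the genotypes did not overlap for 46% of all tested genes. With upper quartile scaling in place of TMM, which moved the median log2 fold change of all genes from 0.002 to -0.103, 2100 were higher and 2411 lower.

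Bid was the only member called, and it was higher in cluster KO. Of the 10 members 1 was called higher and 0 lower, against 15.9% and 12.1% of all tested genes, and 5 of 10 had no overlap between the genotypes, against 46%. The median log2 fold change of the 10 members was -0.11, beside 0.002 for all tested genes, and single members ran from -1.10 to 0.67. None of the members was near the limit of detection in all libraries, but Pmaip1 and Bak1 rested on few reads. In a bulk sample, fewer cells of a type and less RNA per cell cannot be told apart.

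**Figure D1:**
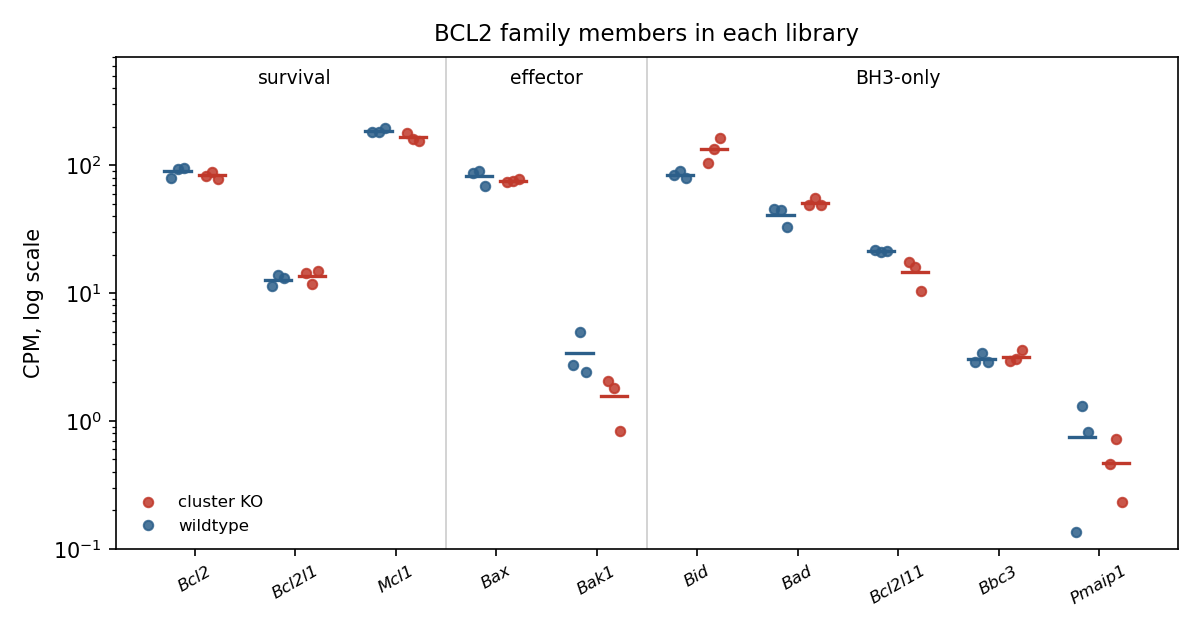
Level of each member in each library, as CPM on a log scale; points are libraries, horizontal bars are means of 3, and vertical lines separate survival, effector and BH3-only members. Bid lies between 103 and 164 CPM in cluster KO and between 79.2 and 90.5 CPM in wildtype, while Bcl2, Bcl2l1, Bax, Bbc3 and Pmaip1 overlap between the genotypes.

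Among the survival members, Mcl1 was at 179.8, 160.1 and 155 CPM in the cluster KO and 183, 181 and 196 CPM in the wildtype libraries. All cluster KO values lay below all wildtype values, the closest values being 179.8 and 181 CPM. Of the cluster KO libraries, the one with the most Bid had the least Mcl1, and this match was not tested. The log2 fold change was -0.18 (SE 0.11, edgeR adjusted p = 0.251), so that Mcl1 (chromosome 3, 95658788 to 95663176), whose protein is short-lived and blocks BAK and BIM, was not called. Bcl2, the founding member of the family (chromosome 1, 106538178 to 106714274), was at 82.1, 88.9 and 78.5 CPM against 79.6, 93.4 and 95.7 CPM. Its genotypes overlapped, with a log2 fold change of -0.11 (SE 0.13, edgeR adjusted p = 0.556). Bcl2l1 (chromosome 2, 152780668 to 152831728) was at 14.4, 11.9 and 14.9 CPM against 11.3, 13.9 and 13 CPM. Its libraries were also mixed, at 0.11 (SE 0.19, edgeR adjusted p = 0.713). Both Bcl2 and Bcl2l1 changed sign once trends over transcript length and GC content were removed, to 0.14 and -0.23.

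Among the effectors, Bax (chromosome 7, 45461697 to 45466898) was at 73.8, 75.7 and 77.9 CPM in the cluster KO and 87.1, 89.7 and 68.9 CPM in the wildtype libraries. One wildtype library lay below every cluster KO library and the others above them, and the log2 fold change was -0.11 (SE 0.14, edgeR adjusted p = 0.569). Bak1, which encodes the partner effector BAK (chromosome 17, 27019810 to 27029009), was at 2.06, 1.81 and 0.836 CPM against 2.76, 4.98 and 2.41 CPM. These levels come from 45, 43 and 18 reads against 61, 88 and 47. The genotypes did not overlap and the log2 fold change was -1.10 (SE 0.46), the largest of the 10 in size, yet Bak1 was not called (edgeR adjusted p = 0.0978). With length and GC trends taken out it was called lower (-1.46, edgeR adjusted p = 0.0491), and it was at -0.72 without wildtype 2. Over its whole length of 9200 bases Bak1 lies within Ggnbp1 on the other strand, and in these libraries without strand the reads of the pair cannot be told apart where their exons overlap. Ggnbp1 itself was at -0.71 (edgeR adjusted p = 0.0779).

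Bid (chromosome 6, 120891930 to 120916853, minus strand) encodes the BH3-only protein that links death receptors to the mitochondrion, since caspase 8 cuts it and the fragment activates BAX and BAK. Bid was at 103, 135 and 164 CPM in the cluster KO and 83.5, 90.5 and 79.2 CPM in the wildtype libraries. Every cluster KO library lay above every wildtype library, but cluster KO 1 was closer to the wildtype libraries than to cluster KO 3. The means were 134 ± 30.4 and 84.4 ± 5.71 CPM (SD, n = 3), a 1.59-fold difference (log2 fold change 0.67, SE 0.17, edgeR adjusted p = 0.0153). The raw counts behind it were 2262, 3202 and 3533 against 1845, 1598 and 1545.

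The size of the Bid difference depended on the processing. With the trends over length and GC content taken out it was 0.22 (edgeR adjusted p = 0.233), and the call was also lost without cluster KO 2 (0.67, adjusted p = 0.0595) and without wildtype 3 (0.62, adjusted p = 0.0674). Without cluster KO 3 it was 0.50 and still called (edgeR adjusted p = 0.0367). Over the 14 alternatives the log2 fold change stayed above 0, from 0.22 to 0.81, with edgeR, limma or DESeq2 adjusted p from 0.00103 to 0.233, and 10 of them called Bid.

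**Figure D2:**
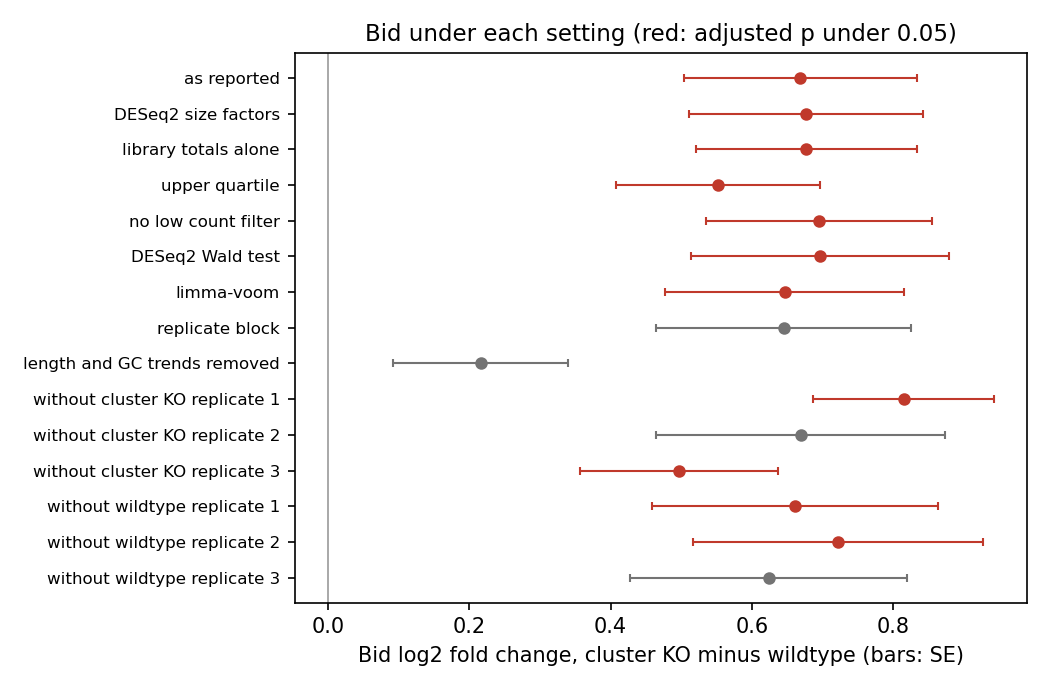
Log2 fold change of Bid (cluster KO minus wildtype, with its SE) as reported and under each of the 14 alternatives, with red points where the adjusted p was under 0.05. All values are above 0, and the lowest, 0.22, is the one with length and GC trends removed.

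Other properties of the libraries are given beside Bid, and not all of them separated the genotypes or followed Bid within cluster KO. Reads outside genes made up 10.05, 8.59 and 7.29% in cluster KO, while wildtype had 10.03, 10.5 and 11.06%, so that among cluster KO libraries the one with the most Bid had the smallest share. The share of counts on mitochondrial genes was 2.17, 1.74 and 1.46% against 2.77, 2.72 and 3.06%, and did not overlap. Nor did the share of counts on rRNA genes, at 0.614, 0.383 and 0.251% against 0.998, 1.08 and 1.44%, or the share of reads with several alignments, at 14.7, 13.9 and 13.4% against 16.1, 16.3 and 16.8%. Within cluster KO the mitochondrial, rRNA and several-alignment shares were also smallest in the library with the most Bid and largest in the one with the least. Summed over 12 B lineage markers, the level was 2031 to 2156 CPM in cluster KO and 643 to 679.8 CPM in wildtype, with 9 of 12 called higher. Within cluster KO the library with the most Bid had the lowest B lineage sum. The sum of 14 neutrophil markers was 10440 to 19970 against 6254 to 11850 CPM (5 called higher), and that of 11 erythroid markers was 1013 to 1342 against 1422 to 1776 CPM (5 called lower). The 12 stem and progenitor markers summed to 1876 to 1915 against 1457 to 1503 CPM (6 called higher, 2 lower), and the 8 megakaryocyte markers to 290 to 293 against 429 to 522 CPM (1 higher, 2 lower). The other sums were 476 to 606 against 407 to 515 CPM for T and NK cells (3 of 11 tested called higher). For monocytes and macrophages they were 188 to 383 against 167 to 214 CPM (3 of 10 higher). Basophil and mast cell markers summed to 286 to 408 against 197 to 252 CPM (2 of 6 tested higher). For stroma and endothelium the sums were 51.2 to 154 against 34.2 to 78 CPM (1 of 5 tested higher). No marker on these lists was at 0 in all 6 libraries. The part of these properties in the Bid difference was not tested.

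At its 3′ end Bid shares 913 bases with Bcl2l13 on the other strand. Bcl2l13 drew 730, 834 and 753 reads in cluster KO against 1150, 881 and 979 in wildtype and was called lower, the opposite direction to Bid. Among 8674 tested genes with a mean of at least 10 CPM, the 3 whose log2 levels followed those of Bid most closely over the 6 libraries were Mlkl (Pearson r = 0.9986), Blmh (0.9985) and Lsg1 (0.9984). Mlkl encodes the membrane-breaking protein of necroptosis, Blmh a cysteine protease that inactivates bleomycin and Lsg1 a GTPase of large ribosomal subunit maturation. These 6 points fall into the 2 genotypes and share their depth and composition, so the r values only describe these libraries.

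Of the BH3-only members that were not called, Bcl2l11, which encodes BIM (chromosome 2, 128126038 to 128162547), was at 17.4, 15.9 and 10.5 CPM in the cluster KO and 21.9, 20.9 and 21.2 CPM in the wildtype libraries. The genotypes did not overlap and the wildtype libraries were close together. Of the cluster KO libraries, the one with the most Bid had the least Bcl2l11, and this match was not tested. The log2 fold change was -0.55 (SE 0.21, edgeR adjusted p = 0.078), and only without cluster KO 1, which moved it to -0.70, was it called (adjusted p = 0.0344). Across the 14 alternatives its adjusted p ran from 0.0344 to 0.186. Bad, whose protein binds BCL2 and BCL-XL until survival kinases phosphorylate it (chromosome 19, 6941861 to 6951899), was at 48.6, 55.0 and 48.6 CPM against 45.6, 44.6 and 32.8 CPM. Every cluster KO library was higher, at 0.31 (SE 0.16, edgeR adjusted p = 0.182), and the difference was 0.08 with length and GC trends removed. It shares 620 bases with Gpr137 on the other strand.

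Bbc3, which encodes PUMA, a p53 target that binds all survival proteins (chromosome 7, 16308393 to 16318205), was at 2.92, 3.03 and 3.58 CPM against 2.90, 3.40 and 2.87 CPM. Its libraries were mixed, at 0.06 (SE 0.31, edgeR adjusted p = 0.906). Pmaip1, which encodes the MCL1-binding protein NOXA (chromosome 18, 66458533 to 66465565), had 10, 17 and 5 counts against 3, 23 and 16. The lowest and the highest value were both wildtype, and the log2 fold change of -0.66 had an SE of 0.80 (edgeR adjusted p = 0.571). No difference in Pmaip1 was detectable at this depth.

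**Figure D3:**
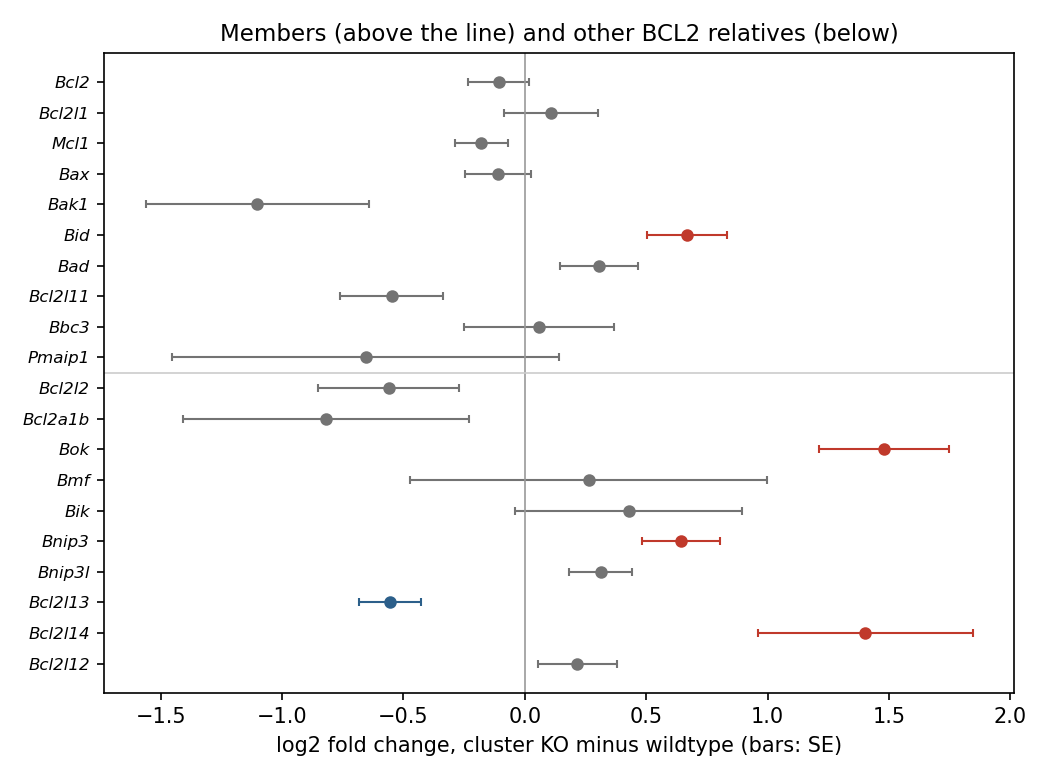
Log2 fold change (cluster KO minus wildtype) with its SE for the 10 members, above the horizontal line, and the 10 other BCL2 relatives that could be tested, below it; red marks genes called higher, blue called lower and grey not called. Bid at 0.67 is the only coloured member, and among the relatives Bok, Bnip3 and Bcl2l14 lie to the right and Bcl2l13 to the left.

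Per kilobase of transcript, the members kept nearly the same order in both genotypes. In wildtype, Bax led at 94.5 ± 13.1 CPM per kb (SD, n = 3), followed by Mcl1 at 54.6, Bid at 38.5, Bad at 28.2, Bcl2 at 12.5, Bcl2l1 at 4.96, Bcl2l11 at 4.23, Bbc3 at 1.68, Bak1 at 1.42 and Pmaip1 at 0.276. Neighbours in this order did not overlap in their libraries except Bbc3 and Bak1. In cluster KO, Bax was at 87.4 ± 2.33 CPM per kb, then Bid at 61.3 ± 13.9, which overlapped the next, Mcl1 at 48.3 ± 3.83. The rest followed as in wildtype, with Bad at 34.9, Bcl2 at 11.6, Bcl2l1 at 5.34, Bcl2l11 at 2.89, Bbc3 at 1.75, Bak1 at 0.657 and Pmaip1 at 0.172. By their means Bid and Mcl1 thus changed places, and no other pair did. In cluster KO 1, however, Bid was at 47.2 and Mcl1 at 52.6 CPM per kb, the order of wildtype. The order was not recomputed with length and GC trends removed.

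Summed per kilobase, the death members exceeded the survival members in every library. The log2 ratio of the survival sum to the death sum came to -1.30, -1.59 and -1.71 in cluster KO, beside -1.36, -1.37 and -0.94 in wildtype. The genotypes overlapped, since cluster KO 1 lay among the wildtype libraries. The difference of the means was -0.31, with SDs of 0.208 and 0.243 over 3 libraries, and -0.17 without wildtype 3. Bid made up 27.5, 32 and 37% of the death sum in cluster KO and 21.5, 22.5 and 24.9% in wildtype. With Bid left out of the death sum the ratios were -0.84, -1.04 and -1.04 against -1.01, -1.0 and -0.53, which also overlapped. Mcl1 made up 73.1 to 75.6% of the survival sum in cluster KO and 74.2 to 77.6% in wildtype, an overlap as well. Plain CPM weights long transcripts such as that of Bcl2 more. On that scale the log2 ratios were 0.15, -0.14 and -0.30 against 0.17, 0.18 and 0.55, a difference of means of -0.39. Here the genotypes did not overlap, with 0.15 and 0.17 as the closest values. With Bid left out, the plain CPM ratios were 0.93, 0.78 and 0.81 against 0.77, 0.81 and 1.24, which overlapped. The ratio of sums is a ratio of RNA levels and says nothing about protein.

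**Figure D4:**
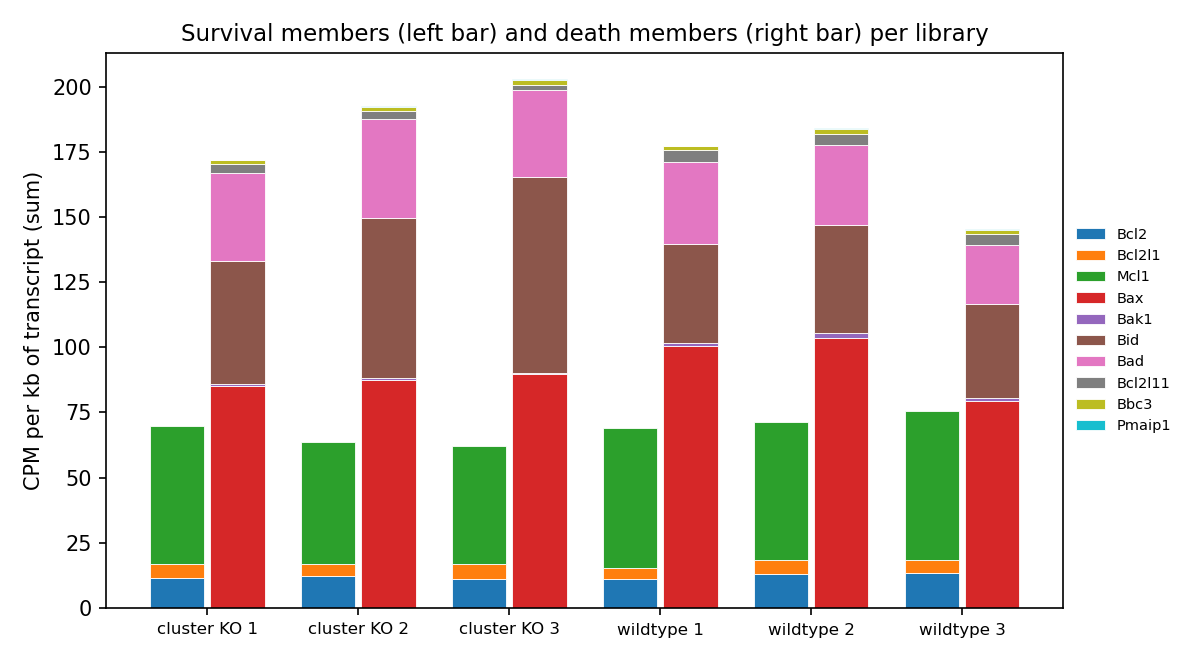
Summed CPM per kilobase of transcript in each library, with the 3 survival members stacked in the left bar and the 7 death members in the right bar of each pair. Survival sums lie between 62.1 and 75.7 and death sums between 145 and 203, with Bax, Bid and Bad making up most of the right bars.

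The other BCL2 relatives were drawn from a list of 15 genes, of which 10 could be tested. Of 8 tested relatives listed as death genes 3 were called higher and 1 lower, beside 15.9% and 12.1% of all tested genes. Their median log2 fold change was 0.37, but the list also holds mitophagy receptors. Of 2 tested survival relatives 0 were called. Bok, an effector related to Bax and Bak1, was at 8.86, 15.0 and 15.5 CPM in the cluster KO and 4.66, 5.10 and 4.36 CPM in the wildtype libraries. It was the strongest of them (log2 fold change 1.48, SE 0.27, edgeR adjusted p = 0.00484) and was called in all 14 alternatives. Bnip3, a mitophagy receptor with a BH3-like segment, was at 67.3, 82.4 and 89.2 CPM against 54.8, 55.9 and 42.4 CPM (0.64, SE 0.16, edgeR adjusted p = 0.0161). It was at 0.31 (edgeR adjusted p = 0.119) with length and GC trends removed. Bcl2l14 was at 3.24, 4.21 and 6.60 CPM against 2.71, 0.963 and 1.59 CPM (1.40, SE 0.44, edgeR adjusted p = 0.0396) and kept its call in 8 of 14 alternatives.

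Bcl2l13, a mitophagy receptor of the mitochondrial outer membrane and the gene that overlaps Bid, was at 33.4, 35.1 and 35.0 CPM against 52.0, 49.9 and 50.2 CPM. Its genotypes were well apart and each was tight (-0.56, SE 0.13, edgeR adjusted p = 0.0119), with 11 of 14 alternatives making the call and a value of -0.36 with length and GC trends removed. Of the relatives not called, Bnip3l, the mitophagy receptor of maturing red cells, was at 0.31 (edgeR adjusted p = 0.0965) and the survival gene Bcl2l2 at -0.56 (adjusted p = 0.173). Bcl2l12 was at 0.22 (edgeR adjusted p = 0.346), Bik at 0.43 (0.526), Bmf at 0.26 (0.819) and Bcl2a1b at -0.82 (0.323). The Bcl2a1 genes are near-identical copies, so their counts are uncertain, and Bcl2a1a, Bcl2a1d, Bcl2l10, Hrk and Bcl2l15 had too few counts to be tested.

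Genes of the death receptor list, which also holds necroptosis genes, were called higher more often than lower. Of 10 genes on the death receptor list 6 were called higher and 1 lower, with a median log2 fold change of 0.67, against 15.9% and 12.1% of all tested genes. Tradd, the adaptor of the TNF receptor, was at 41.6, 56.2 and 57.7 CPM in the cluster KO and 29.5, 29.2 and 21.3 CPM in the wildtype libraries (0.96, SE 0.19, edgeR adjusted p = 0.00606) and was called in all 14 alternatives. Tnfrsf1a, that receptor, was at 43.6, 38.3 and 42.1 against 23.8, 26.8 and 30 CPM (0.62, SE 0.15, edgeR adjusted p = 0.0145), but at 0.16 with length and GC trends removed. The necroptosis genes Ripk3 (0.81, SE 0.19, edgeR adjusted p = 0.0136) and Mlkl (0.73, SE 0.21, adjusted p = 0.0294) were called too. With those trends removed they were at 0.34 and 0.32 and not called (edgeR adjusted p = 0.133 and 0.232), and Tnfrsf1a was called in 10, Ripk3 in 9 and Mlkl in 7 of 14 alternatives. Fas, a death receptor, and Traf2, an adaptor, were the other genes called higher. The single gene called lower was Cflar, whose protein competes with caspase 8 at the receptor; these 3 were named after their values were seen. Cflar was at 71.0, 61.8 and 55.6 CPM against 75.9, 90.8 and 91.2 CPM (-0.45, SE 0.14, edgeR adjusted p = 0.0382). The calls of Fas, Traf2 and Cflar were not checked under the 14 alternatives.

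Caspase 8, which cuts BID, was higher as RNA. Casp8 was at 135, 173 and 171 CPM in the cluster KO and 96.1, 94.4 and 75.8 CPM in the wildtype libraries. The genotypes did not overlap, with a log2 fold change of 0.85 (SE 0.14, edgeR adjusted p = 0.00384), 0.60 (adjusted p = 0.00794) with length and GC trends removed, and a call in all 14 alternatives. Of the 20 apoptosome and caspase genes 5 were called higher and 3 lower, beside 15.9% and 12.1% of all tested genes, with a median of 0.13. Diablo, whose protein leaves the mitochondrion and binds inhibitors of apoptosis, was at 177, 205 and 250.1 against 139, 129 and 90.9 CPM (0.82, SE 0.18, edgeR adjusted p = 0.00954). Cycs, which encodes cytochrome c, went the other way, at 319, 278 and 271 against 404, 402 and 449.9 CPM (-0.53, SE 0.11, edgeR adjusted p = 0.00679). Both Diablo and Cycs were called in all 14 alternatives.

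**Figure D5:**
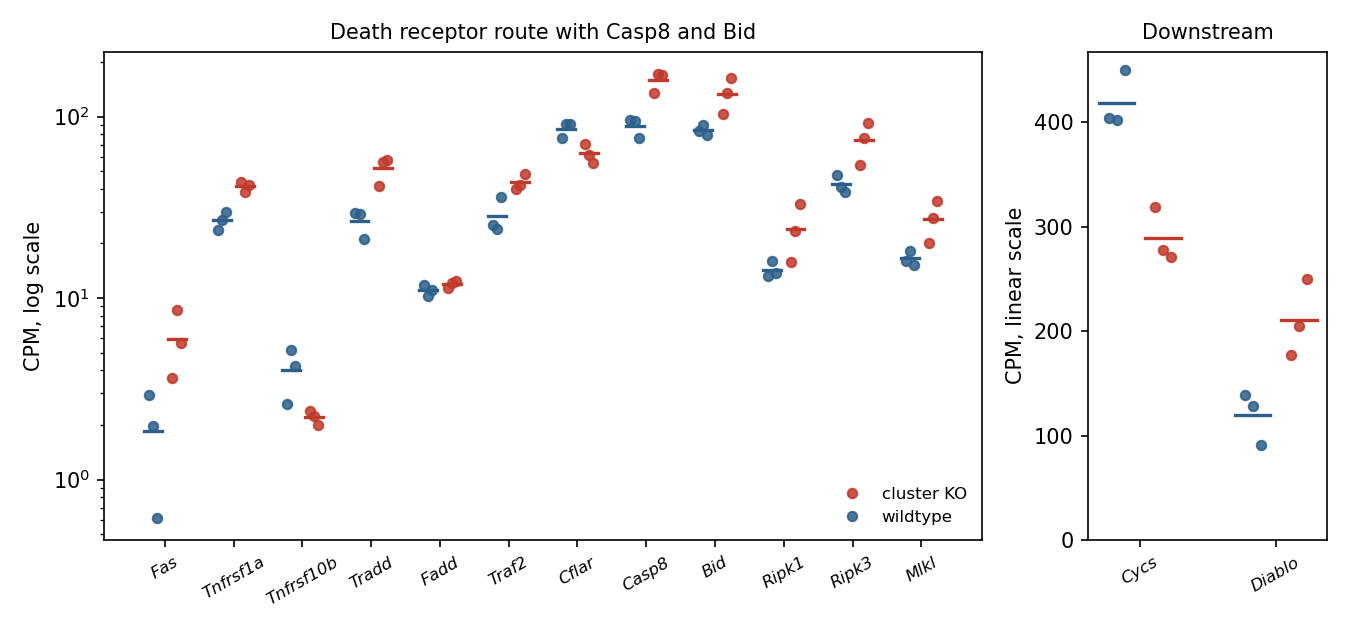
Level in each library of the death receptor list with Casp8 and Bid (left, CPM on a log scale) and of Cycs and Diablo (right, CPM on a linear scale); points are libraries and horizontal bars are means of 3. Casp8 lies between 135 and 173 CPM in cluster KO and between 75.8 and 96.1 CPM in wildtype, and Cflar and Cycs lie lower in cluster KO.

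Among partners at the mitochondrial outer membrane the calls were about as frequent as among all genes. Of 10 partner genes 1 was called higher and 2 lower, beside 27.9% called in all, with a median of -0.03. Bcap31, an endoplasmic reticulum protein that caspase 8 cuts, was at 634, 700.5 and 709 CPM against 544, 489 and 396 CPM (0.52, SE 0.12, edgeR adjusted p = 0.0142), and was called in 11 of 14 alternatives. The mitochondrial fusion genes Mfn2 (-0.64, SE 0.17, edgeR adjusted p = 0.0224) and Opa1 (-0.42, SE 0.13, adjusted p = 0.0353) were lower, with Mfn2 called in 10 and Opa1 in 6 of 14 alternatives. The channel gene Vdac3 was at 0.35 (edgeR adjusted p = 0.0809).

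Among 12 listed regulators of BH3-only genes, 11 could be tested, and 3 were called higher and 1 lower, beside 15.9% and 12.1% of all tested genes. Their median was 0.15, and Trp73 had 0 counts in all libraries. Foxo3, a transcription factor that induces Bcl2l11 and Bbc3, was at 36.6, 37.5 and 28.8 CPM in the cluster KO and 51.3, 51.7 and 62.7 CPM in the wildtype libraries. The genotypes did not overlap (-0.69, SE 0.16, edgeR adjusted p = 0.0119), and the call was also made with length and GC trends removed (-0.56, adjusted p = 0.0158) but not without wildtype 3 (adjusted p = 0.0569). Trp53, which encodes p53, was at 221, 298 and 356 against 199, 198 and 172 CPM (0.62, SE 0.16, edgeR adjusted p = 0.0192), and at 0.18 (adjusted p = 0.304) with those trends removed. The others called are targets of p53 rather than inducers. Cdkn1a, a cell cycle inhibitor, was at 32.4, 24.9 and 26.8 against 12.2, 11 and 15.6 CPM (1.11, SE 0.20, edgeR adjusted p = 0.00433), and Phlda3, an AKT repressor, at 7.17, 13.5 and 13.1 against 6.33, 5.44 and 2.31 CPM (1.26, SE 0.39, adjusted p = 0.0347). With length and GC trends removed Cdkn1a was at 0.64 (edgeR adjusted p = 0.0603), its only lost call, and Phlda3 kept its call in 8 of 14 alternatives. Bbc3, Pmaip1 and Bax, which p53 can also induce, were not called, as given above. Nor were the p53 targets Mdm2 (0.40, edgeR adjusted p = 0.0774), Ccng1 (-0.15, adjusted p = 0.389) and Aen (0.10, adjusted p = 0.602) of the same list. Mdm2, Ccng1 and Aen were named after their values were seen.

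The promoters of 9 of 10 members were matched by symbol in RefSeq (GRCm38.p6, 15 windows of 250 bases before to 50 after a start). A FOXO motif, GTAAACA on either strand, stood in a window of 2 members, Bcl2l11 and Bbc3, and in 3.65% of all 32851 promoter windows. A GC box, GGGCGG on either strand, stood in windows of 7 members and in 35.7% of all windows. The Bid window held 3, while 10.7% of all windows held at least 3. Members that were not called held as many or more, with 7 in Bcl2, up to 7 in Bbc3, 4 in Bad and 3 in Bax and Bcl2l11. Mcl1 held 1, and Bcl2l1 and Bak1 held 0. The Bid window is shown as that of the called member, with its GC boxes in capitals, and the first Bcl2l11 window as the BIM promoter with the FOXO motif, in capitals. A member with several windows counts once if any of them holds the motif, so the member counts and the window shares are unlike units. A match is a run of letters, not a bound site.
Bid (chr6:120916775-120917074, minus strand): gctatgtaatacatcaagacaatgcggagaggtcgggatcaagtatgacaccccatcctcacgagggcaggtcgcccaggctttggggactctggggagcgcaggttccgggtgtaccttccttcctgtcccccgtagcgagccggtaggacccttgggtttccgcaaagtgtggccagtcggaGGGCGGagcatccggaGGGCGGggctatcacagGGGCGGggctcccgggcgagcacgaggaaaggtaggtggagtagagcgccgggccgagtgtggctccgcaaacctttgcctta
Bcl2l11 (chr2:128125788-128126087, plus strand): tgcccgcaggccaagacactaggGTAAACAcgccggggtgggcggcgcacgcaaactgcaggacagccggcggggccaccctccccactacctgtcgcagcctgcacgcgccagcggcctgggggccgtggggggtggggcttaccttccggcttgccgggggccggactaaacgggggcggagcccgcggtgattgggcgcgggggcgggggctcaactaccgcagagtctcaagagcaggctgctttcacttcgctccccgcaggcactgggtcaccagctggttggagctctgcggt

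Genes that control the BCL2 proteins after translation were called in both directions, and more often than genes at large. Of 14 genes on the list of MCL1 and BIM turnover and BAD kinases 5 were called higher and 3 lower, beside 15.9% and 12.1% of all tested genes, with a median of -0.19. The kinases PIM1 and PIM2 both phosphorylate BAD, yet their genes went in opposite directions. Pim1 was at 17.3, 11.7 and 7.81 CPM in the cluster KO and 33.6, 45.0 and 51.6 CPM in the wildtype libraries (-1.82, SE 0.28, edgeR adjusted p = 0.00291). Pim2 was at 20.9, 33.3 and 34.5 against 16.8, 11 and 9.94 CPM (1.23, SE 0.26, edgeR adjusted p = 0.00813). Ywhaz, a 14-3-3 gene whose protein holds phosphorylated BAD away from mitochondria, was at 489, 647 and 775 against 397, 409 and 371 CPM (0.70, SE 0.15, edgeR adjusted p = 0.00904). Bag3, a co-chaperone of HSP70, was at 5.12, 5.68 and 4.18 against 9.46, 10 and 14.7 CPM (-1.19, SE 0.26, edgeR adjusted p = 0.00967). All 4 were called in all 14 alternatives.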

How the data were processed

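Bone marrow RNA of 3 cluster KO and 3 wildtype libraries was analysed, grouped by sample title. The authors deposited unnormalized counts of reads for each Ensembl gene, in 1 table. Per the submitters' processing notes, bcl2fastq, TopHat2, HTSeq and mm10 were used. Versions, annotation and counting mode: not given in the sources used here. Per the labels, libraries came from whole cell extracts with a non-stranded Clontech and Nextera XT chemistry and were pooled for sequencing. Counting error limits low genes, and the reads carry no molecular identifiers.

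Of 47729 genes, 47310 matched GENCODE M21 (GRCm38). The 5 summary rows, 23.38 to 30.81% of reads, were left out. edgeR 4.0.16 in R 4.3.3 tested cluster KO against wildtype (TMM, filterByExpr with a minimum count of 10, robust quasi-likelihood F-test, Benjamini-Hochberg at 0.05 over 15686 genes). A standard error is the coefficient divided by the square root of F. CPM per kb divides by the longest principal transcript. limma 3.58.1 (voom) and DESeq2 1.42.0 were alternatives, as were other scalings, no filter, a replicate block, removal of length and GC trends, and each library left out.

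The members and gene lists were chosen with earlier results of these data known. Named were the 10 members, their relatives, up to 4 genes with the smallest p from each pathway list and, for each called member, the 3 genes most like it by Pearson r of log2 CPM (pseudocount 0.5). 1 gene that this rule names is not reported here. Marker lists are given as sums. Sequences came from GENCODE and RefSeq.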

Additional observations from a re-analysis of the deposited data

How the results depend on the processing

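Over the 14 alternatives, 128 of 140 values of the 10 members kept their direction and their side of the threshold, 4 lost the call (all for Bid), 2 gained one (Bak1 with length and GC trends removed, Bcl2l11 without cluster KO 1) and 6 changed sign without a call. The cause was not tested. With length and GC trends removed Bcl2 was at 0.14, Bcl2l1 at -0.23 and Bbc3 at -0.31, and with upper quartile scaling Bcl2l1 was at -0.00019 and Bbc3 at -0.052. With 1 library left out, Bbc3 ran from -0.036 to 0.14, Bmf from -0.30 to 0.93 and Bik from -0.089 to 0.65. Of 420 values of the 30 other named genes 357 were unchanged in this sense, 59 lost and 1 gained a call, and 3 changed sign.

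With the replicate block 2196 genes were called, 1331 higher and 865 lower, and 0 of the 10 members, with Bid at 0.64 (edgeR adjusted p = 0.0532). Same-numbered libraries did not deviate together (r of -0.12, 0.02 and -0.09). These r values rest on deviations from means of few libraries and cannot settle whether the numbers pair them. The labels do not say so either, and the block is given only as an alternative. With 1 library left out, 2000 to 5730 genes were called in all, 1258 to 3151 higher and 742 to 2579 lower, with 0 to 2 of the 10 members. The share of higher genes among those called was 56.8% as reported, 46.6% with upper quartile scaling and 47.1% with length and GC trends removed. The survival to death ratio differed by -0.39 with plain CPM in place of CPM per kb, against -0.31. Counting depth limits Pmaip1, Bak1 and Bbc3, whose libraries had at most 88 counts.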
